A study of Mus musculus with 2 samples.

Results

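The 35 genes described here encode the glucose transporters, the enzymes of glycolysis, the lactate dehydrogenases, the lactate and pyruvate carriers, and the pyruvate dehydrogenase complex with its kinases. They were chosen by gene symbol among 55536 annotated mouse genes, by a rule that uses no expression value, although earlier results of these data were known when the set was drawn up. All 35 symbols were found in both libraries. The symbol Aldoa also names a second annotated gene on chromosome 7, from 126800790 to 126809108, which had 0 estimated counts in both libraries and was not used.

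The RNA came from regulatory T (Treg) cells, the CD4 T cells that restrain immune responses, of 1 male mouse sample aged 9 weeks. PolyA-selected RNA was fragmented by shearing and made into 2 libraries, which the labels give as technical replicates 1 and 2 of biological replicate 1. There was 1 group, with no treatment and no second genotype. The labels do not give strain, sorting markers, cell number or strandedness, and the source is described only as a whole organism. The SD given with each mean (n = 2 technical libraries throughout) is therefore a technical spread, which says nothing of other mice, and no p-value was computed.

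In glycolysis, glucose enters the cell through facilitative transporters, is trapped by phosphorylation and is split into triose phosphates that are oxidised to pyruvate with a gain of ATP. Pyruvate is then reduced to lactate and exported, or carried into mitochondria, where the pyruvate dehydrogenase complex turns it into acetyl-CoA. Most steps can be run by several isozymes from separate genes, which differ in affinity, regulation and tissue. Activated conventional T cells are known for high glycolysis, and Treg cells for a larger part of mitochondrial oxidation.

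Library 1 held 34697128 and library 2 held 32049199 estimated counts on annotated genes. These come from tables on the GENCODE M21 annotation, where a model splits a read that fits several genes, and levels are given as TPM, a length-corrected abundance scaled to a fixed total. The Treg markers Foxp3, Il2ra, Ctla4, Ikzf2 and Tnfrsf18 and the T cell markers Cd3e, Cd3d, Cd4, Trac and Trbc2 were all detected, with Foxp3 at 108 and 111 TPM. Of the 5 B cell markers 4 were detected, with a summed level of 45.8 and 40.5 TPM, mostly Cd79b. Of the 9 myeloid and neutrophil markers 2 were detected, with a summed 21.1 and 20.5 TPM, mostly Lyz2, and Elane at 0. In library 1 S100a8 and S100a9 had 0 counts, whereas in library 2 they had 32 and 20. Of the 5 red cell markers 3 were detected, with a summed 216 and 205 TPM, mostly Hbb-bs. Skeletal muscle markers summed to 20.8 and 20.9 TPM, nearly all of it Mylpf and Tnnt3, while Ckm had 7.12 and 0 counts. No platelet, neuron and astrocyte, or fat marker was detected. The part of such cells in the levels below was not tested.

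As a set the pathway was well expressed. At 1 TPM or more in both libraries, 33 of the 35 genes (94.3%) were detected, against 48.0% of 22028 protein-coding genes and 23.9% of all annotated genes. The undetected members were Slc2a6 and Hk3. The median member stood at 76.0 TPM, while the median detected protein-coding gene stood at 31.1 TPM. Together the 35 genes made up 4942 TPM in library 1 and 4772 TPM in library 2, which is 0.497% and 0.480% of the annotated total.

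The levels spanned a wide range. By mean TPM, 13 members stood at 100 or more, 14 between 10 and 100, 6 between 1 and 10, and 2 under 1. Ldha, Eno1, Pkm and Aldoa were the highest, at ranks 102, 103, 177 and 310 among the 10583 detected protein-coding genes. These 4 genes alone held 58.4% of the pathway's TPM in library 1 and 58.5% in library 2.

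**Figure D1:**
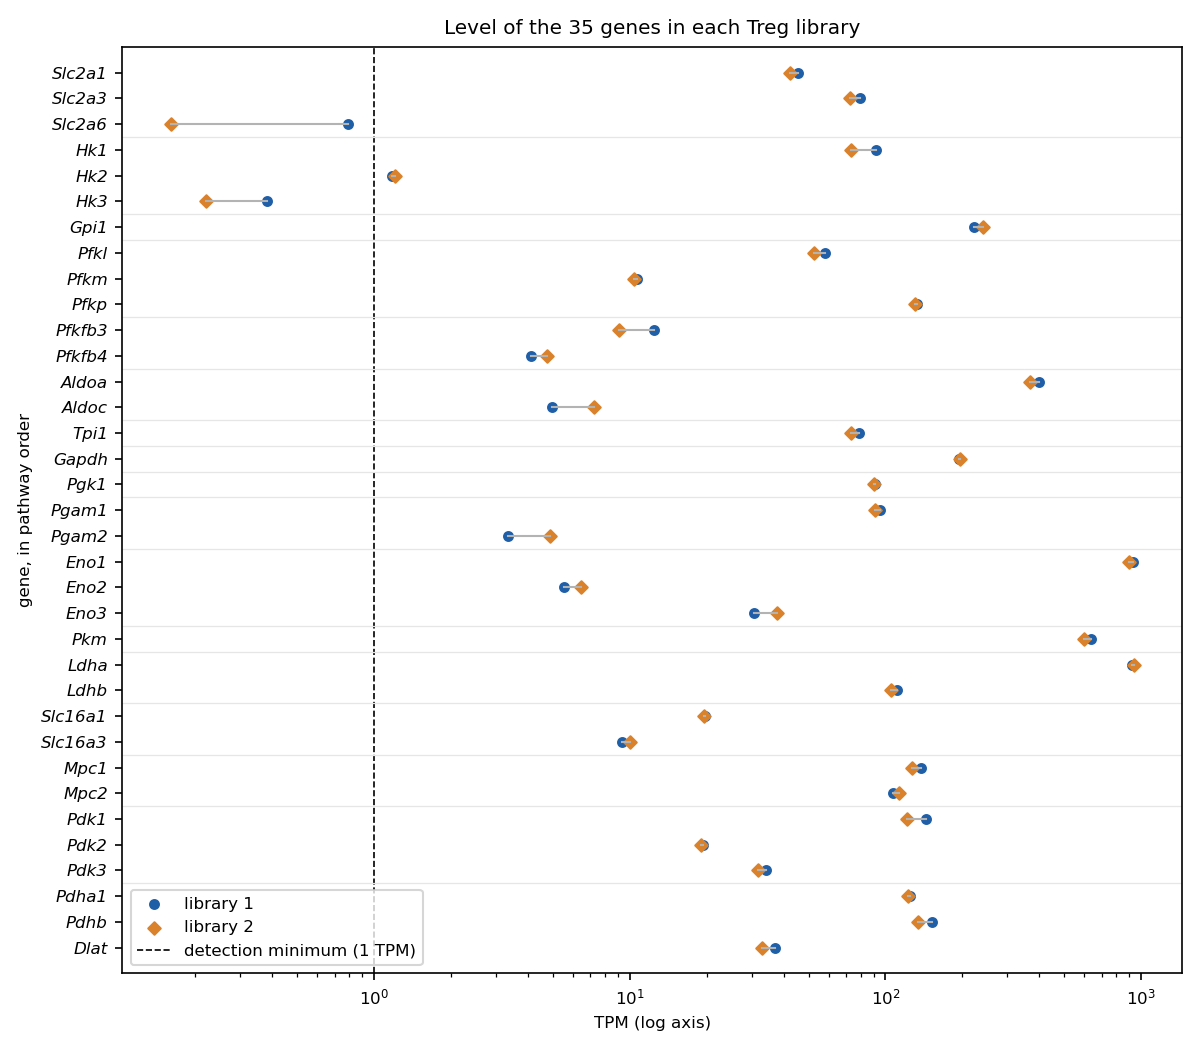
TPM of each of the 35 genes on a log axis, in pathway order, with circles for library 1 and diamonds for library 2; thin lines part the steps and the dashed line marks the detection minimum of 1 TPM. Ldha, Eno1, Pkm and Aldoa lie farthest to the right, Slc2a6 and Hk3 lie left of the dashed line, and the widest gap between libraries is that of Slc2a6.

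Of the 3 glucose transporter genes, Slc2a3 and Slc2a1 were detected. Slc2a3, the high-affinity transporter GLUT3, stood at 79.7 and 72.4 TPM in libraries 1 and 2. Slc2a1, the widely expressed transporter GLUT1, stood at 45.4 and 42.4 TPM. Slc2a3 was thus 1.76-fold and 1.71-fold higher, and held 63.1% ± 0.246 of the summed TPM of the 3 transporters. Slc2a6, a lysosomal transporter also named GLUT6, had 35 estimated counts in library 1 and 5 in library 2, or 0.79 and 0.16 TPM.

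Hexokinases phosphorylate glucose and so keep it in the cell. Hk1, the constitutive isozyme bound to mitochondria, stood at 91.5 and 73.6 TPM. Hk2, the inducible isozyme of muscle and activated cells, stood at 1.17 and 1.21 TPM, on 88 and 115 estimated counts. The 2 genes were far apart in both libraries, with Hk1 78.2-fold and 60.9-fold above Hk2. Hk3, an isozyme best known from myeloid cells, had 16 and 13 estimated counts. Hk1 made up 98.2% ± 0.169 of hexokinase TPM.

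Gpi1, which turns glucose 6-phosphate into fructose 6-phosphate, stood at 222 and 240 TPM. At the next step, phosphofructokinase, the platelet-type gene Pfkp led with 133 and 130 TPM. The liver-type gene Pfkl followed at 57.9 and 52.5 TPM, and the muscle-type gene Pfkm at 10.6 and 10.4 TPM. All 3 forms were therefore detected, in the same order in both libraries, with Pfkp at 66.7% ± 0.974, Pfkl at 28.0% ± 1.05 and Pfkm at 5.32% ± 0.0716 of the step. The bifunctional enzymes that set fructose 2,6-bisphosphate, an activator of phosphofructokinase, were low, with Pfkfb3 at 12.4 and 9.07 TPM and Pfkfb4 at 4.12 and 4.73 TPM. Pfkfb3 led in both libraries, but its share moved from 75.1% to 65.7%.

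Aldolase splits the phosphorylated hexose, and Aldoa, its widely expressed form, stood at 397 and 367 TPM. Aldoc, the form named for brain, stood at 4.95 and 7.22 TPM, so that Aldoa held 98.4% ± 0.495 of the step. Tpi1, which interconverts the triose phosphates, stood at 79.0 and 73.4 TPM.

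The lower part of the pathway, from triose phosphate to pyruvate, was uneven in level. Gapdh, the NAD-linked dehydrogenase often used as a reference gene, stood at 193 and 195 TPM. Pgk1, which makes the first ATP of the pathway, stood at 91.1 and 90.4 TPM. Its relative spread in TPM was the smallest of all members, with a coefficient of variation of 0.561%. By the scaled counts described further on it was not the smallest, with a log2 ratio of 0.058 against -0.00065 for Pgam1. Pgam1, the general phosphoglycerate mutase, stood at 95.6 and 90.8 TPM. The muscle form Pgam2 stood at 3.35 and 4.87 TPM, on 56 and 79 counts, although in the M4 counts Pgam2 exceeded Pgam1.

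Enolase, which makes phosphoenolpyruvate, had 1 dominant gene by TPM, though not in the M4 counts, where Eno3 exceeded Eno1. Eno1, the general form, stood at 928 and 894 TPM. Eno3, the muscle form, stood at 30.6 and 37.7 TPM, and Eno2, the neuronal form, at 5.52 and 6.45 TPM. Eno1 made up 95.8% ± 0.676 of the step, Eno3 3.60% ± 0.595 and Eno2 0.630% ± 0.0813. Eno3, at 873 and 1041 counts, was thus 5.55-fold and 5.84-fold above Eno2 in the 2 libraries.

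Pyruvate kinase makes pyruvate and ATP. The single gene Pkm, on chromosome 9 from 59656368 to 59679375 (GRCm38, plus strand), gives the M1 form of adult muscle and brain or the M2 form of proliferating and many other cells, by including 1 of a pair of mutually exclusive exons. Each is 167 bases long and is the ninth exon of its transcript. The pair is shown because these exons define the 2 forms, and capitals mark the 64 bases at which they differ over their ungapped length, the other 103 being identical.
Pkm M1 exon, chr9:59675029-59675195: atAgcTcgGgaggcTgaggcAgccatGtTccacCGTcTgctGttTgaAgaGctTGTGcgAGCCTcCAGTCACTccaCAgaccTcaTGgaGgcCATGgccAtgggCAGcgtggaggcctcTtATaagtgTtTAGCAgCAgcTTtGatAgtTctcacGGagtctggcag
Pkm M2 exon, chr9:59675568-59675734: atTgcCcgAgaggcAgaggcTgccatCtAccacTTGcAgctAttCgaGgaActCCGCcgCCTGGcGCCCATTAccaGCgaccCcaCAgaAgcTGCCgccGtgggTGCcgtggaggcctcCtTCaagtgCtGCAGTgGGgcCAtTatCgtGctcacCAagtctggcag

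Pkm as a whole stood at 637 and 595 TPM. Its M2 transcript, Pkm-201, took 582 and 556 TPM on 29324 and 27175 estimated counts. Its M1 transcript, Pkm-202, took 40.2 and 27.3 TPM on 1692 and 1117 counts. The M2 form was 14.5-fold above the M1 form in library 1 and 20.3-fold above it in library 2. The transcripts also differ in length outside the exon (2432 and 2041 bases in all), so the counts do not rest on the exon alone. The M2 form made up 94.4% ± 1.252 of the 2 forms together and 92.4% ± 1.38 of all Pkm TPM, the remaining 9 transcripts holding 2.16% ± 0.169. Gm49759, an unclassified gene on the same strand from 59672814 to 59676700, covers both exons and was given 834 and 590 counts, so that some reads of this region could be assigned to either gene.

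Lactate dehydrogenase, which reduces pyruvate to lactate, had the highest summed TPM of all 17 steps, at 1038 TPM ± 4.60. Ldha, the subunit that favours lactate formation, stood at 923 and 936 TPM. Ldhb, the heart-type subunit, stood at 111 and 105 TPM. Ldha was 8.29-fold and 8.92-fold higher and held 89.6% ± 0.486 of the step. The plasma membrane carriers that move lactate were far lower. Slc16a1, the carrier MCT1, stood at 19.7 and 19.4 TPM, and Slc16a3, the exporter MCT4 known from glycolytic cells, at 9.29 and 10.1 TPM. Slc16a1 was 2.12-fold and 1.93-fold above Slc16a3.

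On the way into mitochondria, both subunits of the pyruvate carrier were detected, and at the gene level their TPM was close. Mpc1 stood at 137 and 127 TPM and Mpc2 at 107 and 113 TPM, a difference of 1.28-fold and 1.12-fold. On coding transcripts they were further apart, since these held 98.3% and 97.5% of Mpc1 TPM but 34.8% and 30.8% of Mpc2 TPM. In the M4 counts described further on, which are not corrected for length, Mpc1 was below Mpc2, at 0.149 and 0.152 of its count. Of the pyruvate dehydrogenase complex, Pdhb, its E1 beta subunit, stood at 151 and 134 TPM. Pdha1, the E1 alpha subunit that the kinases phosphorylate, stood at 124 and 122 TPM, and Dlat, the E2 acetyltransferase, at 37.1 and 33.0 TPM. Pdha1 and Pdhb were within 1.22-fold of each other, and Dlat lay 3.35-fold and 3.71-fold below Pdha1. This order is that of TPM: by estimated counts Pdha1 held 49.9% of the 3 and Pdhb 34.98%, and by M4 counts Pdha1 held 42.3%, Dlat 33.0% and Pdhb 24.7%.

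The pyruvate dehydrogenase kinases, which switch the complex off, were led by Pdk1. Pdk1, a known target of hypoxia-inducible factor, stood at 144 and 122 TPM. Pdk3 stood at 34.2 and 31.8 TPM and Pdk2 at 19.4 and 19.1 TPM. At the gene level Pdk1 was 4.20-fold and 3.84-fold above Pdk3 and made up 71.7% ± 1.61 of the 3, with Pdk3 at 17.9% ± 0.750 and Pdk2 at 10.4% ± 0.857. Only a small part of the Pdk1 level was given to its coding transcript, and on coding transcripts alone Pdk3 was the highest, as described further on.

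Across the steps, by summed TPM, lactate dehydrogenase was followed by enolase at 951 TPM ± 18.3, pyruvate kinase at 616 TPM ± 29.4, aldolase at 388 TPM ± 19.9 and the measured pyruvate dehydrogenase subunits at 301 TPM ± 16.5. The libraries of these 5 steps did not overlap. Phosphofructokinase (197 TPM ± 6.38), Gapdh (194 TPM ± 1.48) and the kinases of pyruvate dehydrogenase (185 TPM ± 17.5) could not be ordered, since their libraries overlapped, and nor could Pgk1 (90.7 TPM ± 0.509) and hexokinase (84.0 TPM ± 12.7). The lowest sums were those of the lactate carriers at 29.3 TPM ± 0.354 and the fructose bisphosphate regulators at 15.2 TPM ± 1.94. This order depends on the table: in M4 counts phosphofructokinase was highest, at 5416 and 5073 counts, with lactate dehydrogenase at 2112 and 2044.

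**Figure D2:**
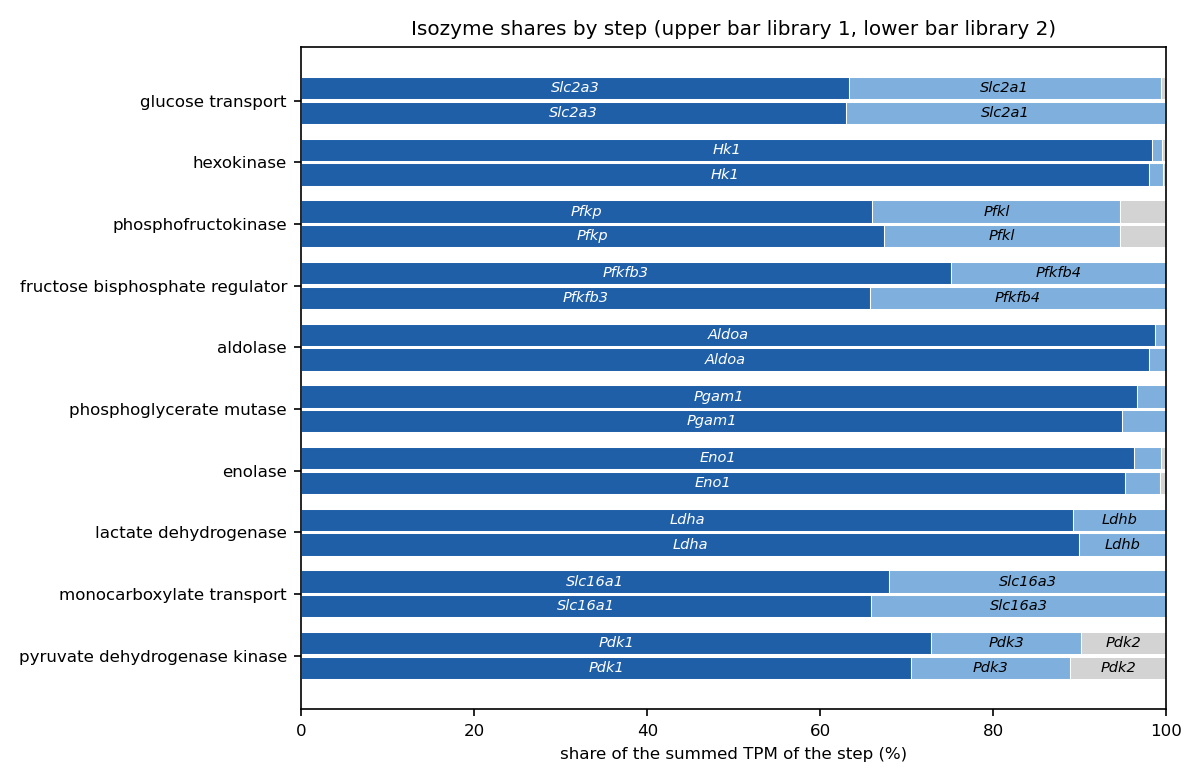
Share of each isozyme in the summed TPM of its step (horizontal axis, percent) for 10 steps with several isozymes; the upper bar of each pair is library 1 and the lower bar library 2, and segments run from the highest to the lowest gene by mean. Hk1, Aldoa, Pgam1 and Eno1 fill over 94% of their bars, whereas transport, phosphofructokinase, the fructose bisphosphate regulators, the lactate carriers and the pyruvate dehydrogenase kinases are divided between genes.

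A gene's level is the sum of its transcripts, and not all of them encode the enzyme. Transcripts annotated as protein-coding held 90% or more of the TPM in 20 of the 35 members, among them Ldha, Pkm, Eno1, Aldoa and Hk1. By the mean of the libraries they held under 50% in 5 members, Slc2a1, Gpi1, Eno2, Mpc2 and Pdk1. In Slc2a1, Eno2, Mpc2 and Pdk1 the leading transcript by mean TPM was itself noncoding. The libraries disagreed on Eno2, which had 238 and 223 counts. Its coding share was 54.3% in library 1 and 27.9% in library 2. In library 1 the coding transcript Eno2-202 led, at 1.99 TPM against 1.49 TPM for the noncoding Eno2-203. In library 2 Eno2-203 led, at 2.62 TPM against 0.99 TPM.

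In Slc2a1 (chromosome 4, 119108711 to 119137983, plus strand), the leading transcript was Slc2a1-204, annotated as a target of nonsense-mediated decay, the pathway that removes messages with a premature stop. It stood at 30.3 and 27.3 TPM, on 1406 and 1227 counts with a posterior SD of 49.9 and 52.2 counts. The coding transcript Slc2a1-201 stood at 15.1 TPM in both libraries, on 1022 and 996 counts.

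Coding transcripts made up 34.4% ± 1.78 of Slc2a1 TPM and 43.5% of its counts. With coding transcripts alone, Slc2a3 held 82.2% of the TPM of the 3 transporters, against 63.1% with all transcripts.

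Pdk1 was further from its gene-level value. Its transcript Pdk1-208, a noncoding processed transcript, stood at 60.6 and 50.6 TPM. It lacks exons 2 and 7 of the coding form (142 and 77 bases) and overlaps the others at least in part. It is 2972 bases long against 5185 for the coding form, so the 2 differ by more than these exons. The coding transcript Pdk1-201 stood at 25.4 and 20.7 TPM, on 2758 and 2186 counts. Coding transcripts were 17.3% ± 0.459 of Pdk1 TPM but 35.1% of its counts, since several of the noncoding transcripts are short. Counted this way, Pdk1 fell below Pdk3, whose 34.2 and 31.8 TPM were all on coding transcripts, and its share of kinase TPM was 31.1% in place of 71.7%.

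In Mpc2, the noncoding transcript Mpc2-203, which lacks exons 1 and 2 of the coding form, stood at 67.3 and 76.5 TPM, against 37.2 and 34.9 TPM for Mpc2-201. By counts these transcripts were close, at 632 and 697 against 767 and 698. Gpi1 was led by its coding transcript Gpi1-201 at 95.3 and 95.6 TPM, with the decay targets Gpi1-207 at 60.4 and 69.3 TPM and Gpi1-206 at 51.7 and 41.5 TPM. Its coding share was 41.3% ± 2.21 of TPM and 67.8% of counts. How well reads separated transcripts that share most of their exons was not tested beyond these posterior SDs.

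**Figure D3:**
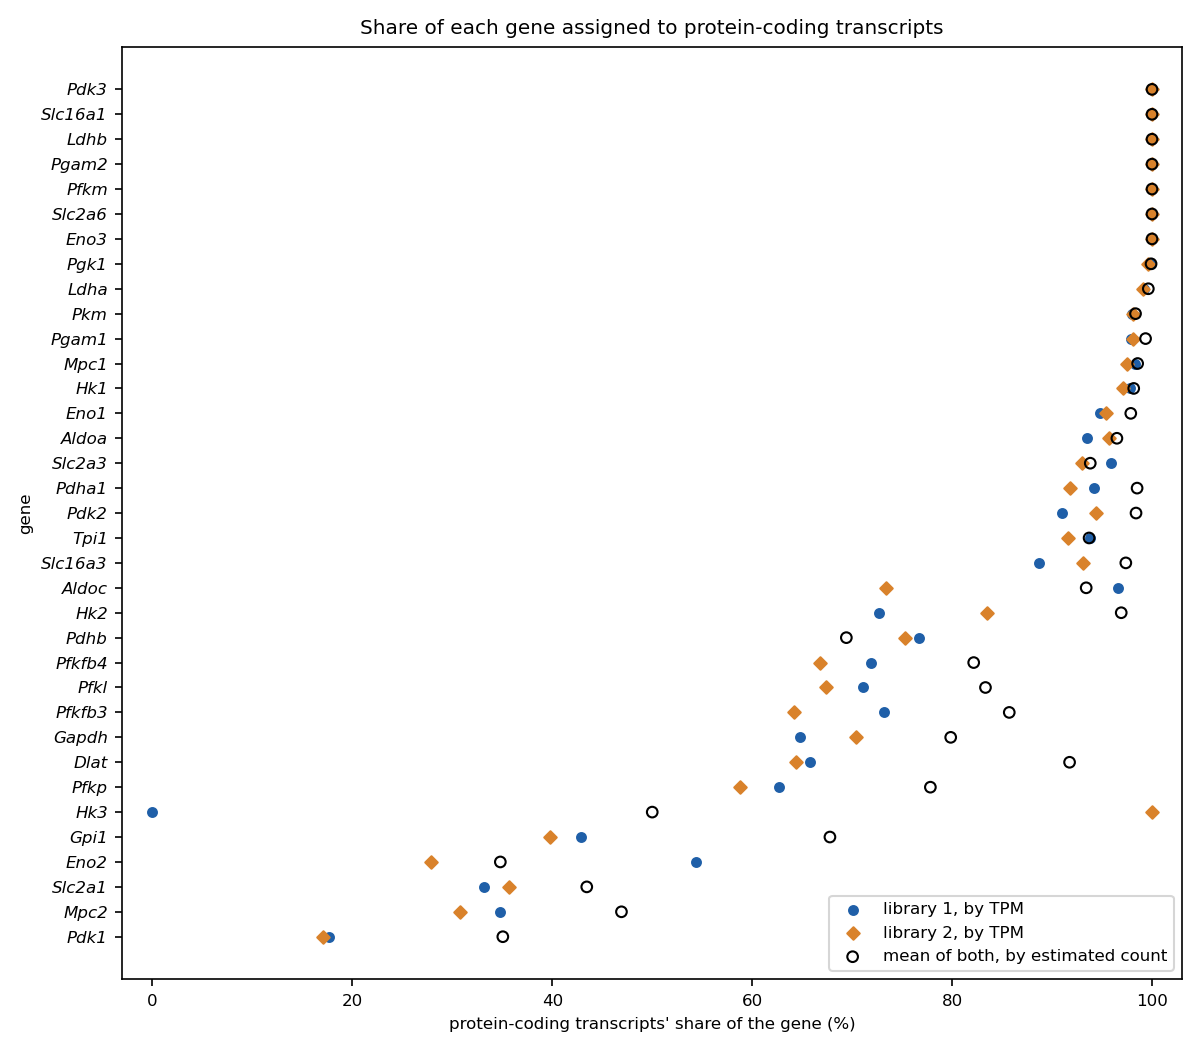
Share of each gene assigned to transcripts annotated as protein-coding (horizontal axis, percent), by TPM in library 1 (circles) and library 2 (diamonds) and as the mean share of estimated counts (open circles), sorted by the mean TPM share. Pdk1, Mpc2, Slc2a1, Eno2 and Gpi1 lie at the bottom with the lowest mean shares, and Hk3, with 16 and 13 counts, jumps from 0% to 100% between the libraries.

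Several glycolytic genes have many retrocopies, intron-less copies of the message elsewhere in the genome. Their effect on how the reads were counted was not tested. For each member the leading coding transcript was cut into all overlapping stretches of 50 bases, and those found on either strand in a transcript of another gene were counted. In 18 members no stretch was shared, among them Slc2a3, Hk1, Hk2, Pfkp, Pdk1 and Slc16a1. In Gapdh 90.4% of stretches were shared, with 222 other genes of which 213 are pseudogenes. Eno1 shared 72.2%, Pgk1 68.0%, Mpc1 41.8%, Pgam1 41.5% and Pkm 34.4%. None of 14 isozyme pairs compared shared a stretch of 50 bases, with 71.5% of aligned coding positions identical between Ldha and Ldhb and 77.0% between Eno1 and Eno3.

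Some copies could not be told from the parent gene over the whole coding sequence. Pgam1-ps2, on chromosome 7 from 27469771 to 27470535, matched all 762 coding bases of Pgam1, and Gm10359 matched all 999 of Gapdh. Pgk1-rs7, on chromosome 12 from 10898986 to 10900240, was identical over 1250 of the 1251 coding bases of Pgk1, those covered by the alignment. Gm4735 (chromosome 2, 80837141 to 80838442) differed from Eno1 at 5 of 1302 bases, and Mpc1-ps (chromosome 12, 110858565 to 110858894) from Mpc1 at 2 of 327. The stretches below, with the differing bases in capitals, are shown because they hold the only letters by which a read could be given to the gene or to its copy there.
Mpc1, coding bases 1 to 100: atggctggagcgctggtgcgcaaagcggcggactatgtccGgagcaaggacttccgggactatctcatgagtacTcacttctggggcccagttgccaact
Mpc1-ps, same stretch: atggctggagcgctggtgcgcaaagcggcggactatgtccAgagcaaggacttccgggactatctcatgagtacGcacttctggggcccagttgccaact
Eno1, coding bases 717 to 816: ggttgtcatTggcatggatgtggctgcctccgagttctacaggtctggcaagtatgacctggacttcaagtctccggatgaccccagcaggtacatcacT
Gm4735, same stretch: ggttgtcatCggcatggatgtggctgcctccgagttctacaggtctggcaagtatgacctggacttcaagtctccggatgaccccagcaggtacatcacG

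In the model-divided counts the copies took few reads. Pgk1-rs7 had 268 and 212 estimated counts against 3417 and 3286 for Pgk1, and Pgam1-ps2 had 18 and 29.7 against 3436 and 3172 for Pgam1. Gm4735 had 1022 and 680 counts against 37417 and 35168 for Eno1, and Mpc1-ps had 127 and 177 against 2256 and 2089 for Mpc1.

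A second deposited table, with whole-number counts from genome alignments on the older GENCODE M4 annotation, gave the same genes far fewer reads. It totals 9576557 and 8937887 counts, and its treatment of a read that aligns to several places is not given in the labels. Over 7995 genes present in both tables with 1000 or more summed M21 counts, the median gene had 41.6% of its M21 count in the M4 table. Pgam1 had 15 and 3 M4 counts, or 0.437% and 0.0946% of its M21 counts. Pgk1 had 26 and 41 M4 counts (0.761% and 1.248%), Gapdh 68 and 56 (1.67% and 1.36%) and Eno1 521 and 526 (1.39% and 1.496%). Mpc1, Ldha and Pkm were also under 10%, so that 7 of 27 members were under that level, against 7.97% of all 7995 genes. All 7 shared stretches of 50 bases with other genes, and none of the 11 members without shared stretches was under 22.3%. The part of the shared sequence in this difference was not tested.

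Exons of 12 members also overlap those of another annotated gene, mostly on the opposite strand, and without a stated strand such reads cannot be told apart. The longest overlaps were those of Pfkp with Pitrm1 (748 exon bases), Gpi1 with Gm26762 (741) and Pdha1 with Map3k15 (603), besides the overlap of Pkm with Gm49759. Map3k15 had 118 and 89.2 estimated counts but 619 and 613 M4 counts, against 1599 and 1565 M4 counts for Pdha1.

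The choice of table therefore set the leading isozyme at some steps. In M4 counts, which are not corrected for length, Pgam1 made up 10.1% of phosphoglycerate mutase and Pgam2 89.9%. In the same counts Eno1 made up 38.0% of enolase and Eno3 54.4%, and Mpc1 13.1% of the pyruvate carrier. Ldha still led over Ldhb, by 1.75-fold and 1.91-fold. Hk1, which shares no stretch with other genes, kept 98.2% of hexokinase in both tables. Pfkp and Pdk1, also without shared stretches, held 55.9% and 55.4% of their steps in M4 counts, against 66.7% and 71.7% by TPM.

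**Figure D4:**
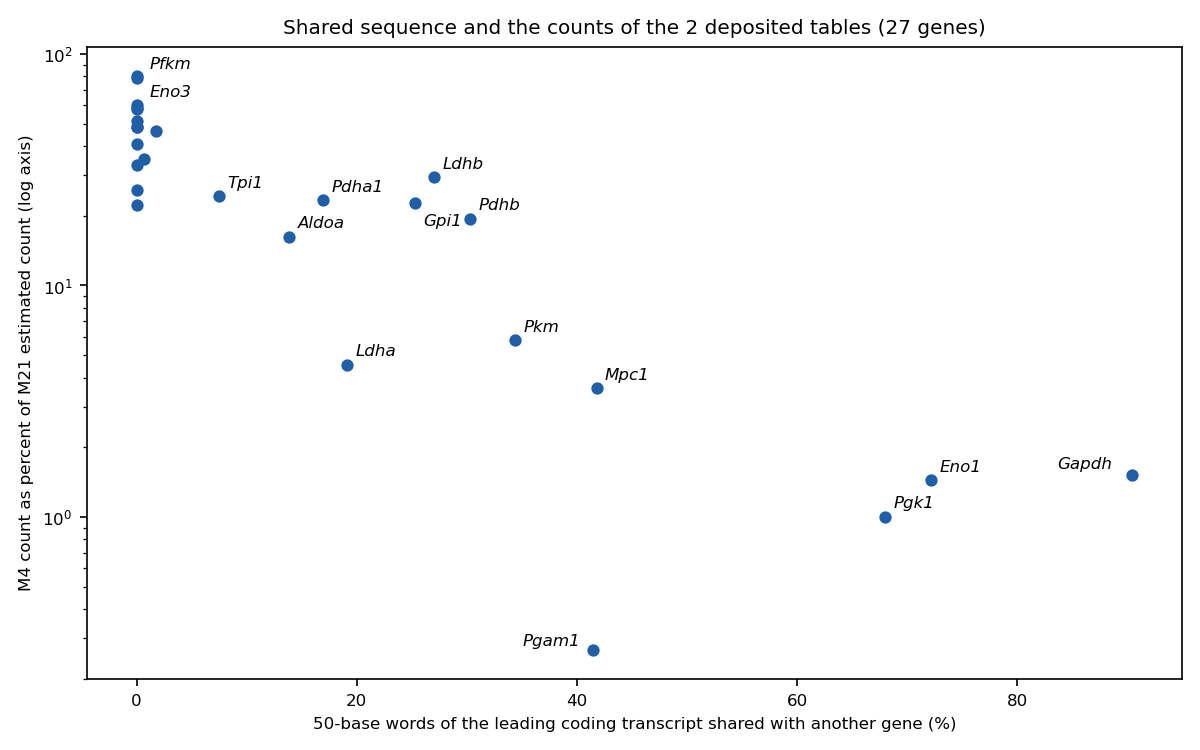
For the 27 members with 1000 or more summed M21 counts, the percent of 50-base stretches of the leading coding transcript found in another gene (horizontal axis) against the mean M4 count as a percent of the M21 estimated count (vertical axis, log). The 11 members at 0 on the horizontal axis lie between 22.3% and 80.5%, and Gapdh, Eno1, Pgk1 and Pgam1 lie lowest.

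Between the technical libraries most members differed little. Ratios were taken as log2 of library 2 over library 1, with estimated counts scaled by edgeR's TMM factors. The larger value was at most 25% above the smaller in 31 of 35 members. Of all 35, 17 were higher in library 1 and 18 in library 2. Hk2 (0.50), Pgam2 (0.61) and Eno3 (0.37) were past this bound with higher values in library 2, beside 19.9% of all 18746 genes with 10 or more summed counts. Slc2a6 (-2.58) was past the bound with the higher value in library 1, beside 17.8% of those genes. Just inside the bound lay Aldoc, 1.248-fold higher in library 2, and Pfkfb3, 1.246-fold higher in library 1.

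The differing members were mostly those with few reads. Among the 27 members with 1000 or more summed counts, Eno3 alone was past it with the higher value in library 2, beside 3.49% of 8311 genes. None was past it in the other direction, beside 2.96% of those genes. Hk1 lay at -0.26 and Pdk1 at -0.17 on this scale. The coefficient of variation of TPM had a median of 5.31% over the members and was under 10% in 26 of them.

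**Figure D5:**
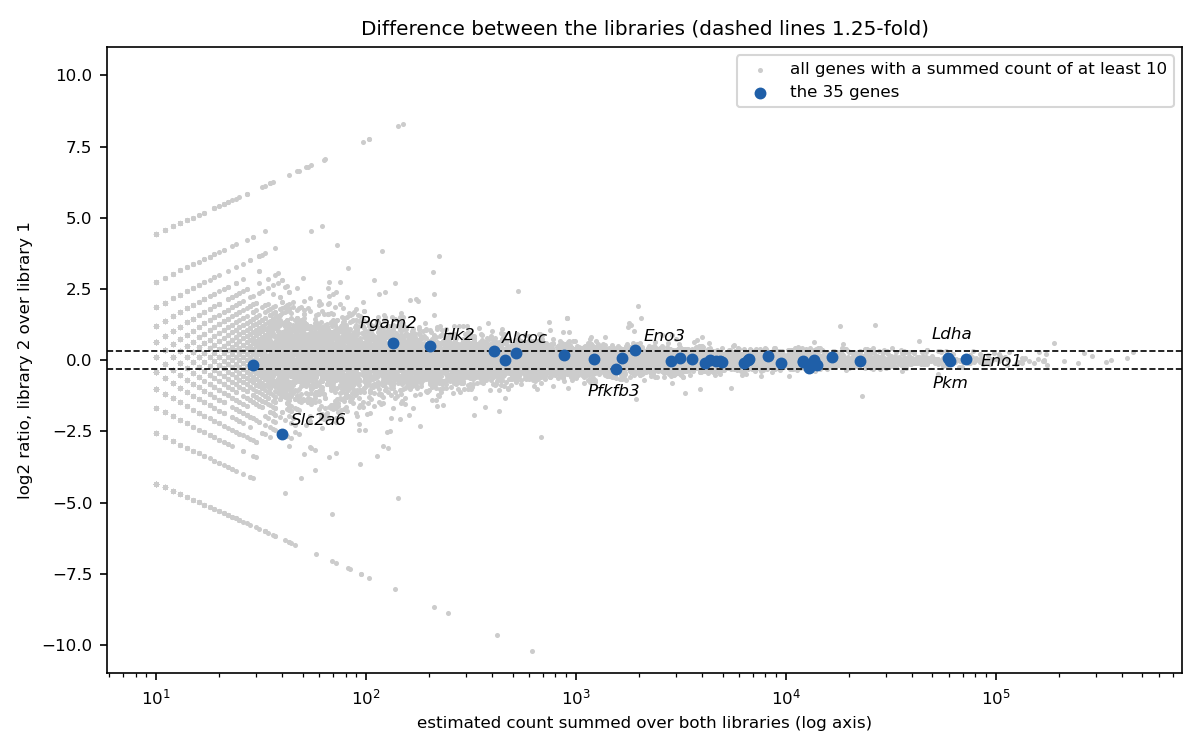
Log2 ratio of library 2 over library 1 against the estimated count summed over both libraries (log axis) for all genes with 10 or more summed counts (grey) and the 35 members (blue), with dashed lines at a ratio 25% above 1 in either direction. The spread of all genes narrows as counts rise; Pgam2, Hk2 and Eno3 lie above the upper line, Slc2a6 below the lower one, and Ldha, Eno1 and Pkm close to 0.

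Genes that share these steps but are not among the 35 were detected at a share near that of all protein-coding genes. Of 33 other isozymes, subunits and partners, 14 were detected, beside 48.0% of all protein-coding genes. The median of the 33, undetected genes included, was 0.485 TPM. Bsg, the chaperone of the lactate carriers, stood at 218 and 212 TPM, and Emb, a related chaperone, at 86.0 and 82.6 TPM. Dld, the E3 subunit of pyruvate dehydrogenase, stood at 77.3 and 71.3 TPM, and Adpgk, an ADP-dependent glucokinase, at 56.2 and 54.5 TPM. Slc2a8 and Slc2a9 were at 6.89 and 8.41 and at 6.16 and 7.01 TPM, each below Slc2a1. Pfkfb1 (4.89 and 4.92 TPM) and Pfkfb2 (4.10 and 4.17 TPM) were at about the level of Pfkfb4.

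The tissue-restricted forms were near or at 0. Slc2a4 and Slc2a5 had 0 counts in both libraries, which allows up to 3 counts each by counting error alone. Pklr, the liver and red cell pyruvate kinase, had 1 count and 0, and Pdk4 had 2 and 2. Pgk2, the testis form, had 8 and 0 counts, and Ldhc, also of testis, 1 and 1. Of the pyruvate dehydrogenase phosphatases, which reverse the kinases, Pdp1 stood at 13.4 and 13.3 TPM and Pdp2 at 4.79 and 4.50 TPM. Among the 18 genes of this list with at least 10 counts, 2 were past the 25% bound with higher values in library 2 and 3 with higher values in library 1. The shares of all genes were 19.9% and 17.8%.

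Of 16 regulators of the pathway 13 were detected. Txnip, which lowers glucose uptake, stood at 600 and 566 TPM, above every member but Ldha, Eno1 and Pkm by mean. Myc, a factor that drives glycolytic genes, stood at 237 and 202 TPM. Hif1a, the hypoxia-inducible factor subunit, stood at 160 and 135 TPM. Mlx, a partner of glucose-sensing factors, stood at 78.8 and 75.4 TPM.

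The neighbouring pathways divided sharply. All 7 genes of the pentose phosphate branch, which makes NADPH and ribose from glucose 6-phosphate, were detected, with a median of 56.5 TPM and Taldo1 highest at 258 and 267 TPM. All 16 citrate cycle genes were detected, with a median of 133 TPM, against 76.0 TPM for the 35 genes, and Mdh2 highest at 410 and 397 TPM. By summed TPM the order was the opposite, with 2300 and 2258 TPM for the citrate cycle genes and 4942 and 4772 TPM for the 35 genes. Of 7 gluconeogenesis genes 2 were detected, G6pc3 at 33.6 and 31.4 TPM and Pck2 at 25.9 and 21.5 TPM. None of the pentose phosphate or citrate cycle genes was past the 25% bound between the libraries. All of them but Rpia had 1000 or more summed counts, where 3.49% and 2.96% of all genes were past it.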

How the data were processed

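PolyA RNA-seq of 1 Treg biosample gave 2 technical libraries, and both formed 1 group. Per the file headers, the deposited M21 gene and transcript tables hold estimated counts, TPM, FPKM, posterior mean TPM, posterior standard deviations (a score of assignment error, per the file headers) and interval bounds (the deposited signal columns). Per the deposited file lists, these tables rest on mm10 transcriptome alignments, while the deposited M4 tables give whole-number counts of genome alignments. Neither the labels nor the headers name the software. In every transcript the deposited effective length was the length less 49 bases, from which stretches of 50 bases were used for shared sequence. Rows naming no gene took 0.197% and 0.212% of estimated counts and were left out.

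The steps computed here took names, exons and transcript sequences from GENCODE M21 on GRCm38 (coordinates 1-based). Detection meant 1 TPM or more in both libraries, and differences in median level used log2(TPM + 1). Isozyme shares were shares of summed TPM. Log2 ratios used edgeR 4.0.16 TMM factors in R 4.3.3 and a prior count of 0.5, over genes with 10 or more summed counts. Coding sequences (stop codon left out) were aligned with Biopython 1.88. Alignments were global between isozymes and local between a member and its copy, and a local alignment can leave out ends that differ. With 1 library on each side no test was possible, so ratios are descriptions. The ratio step and the search for shared stretches were tested on simulated data, and the isozyme shares were not. The limit of 3 counts for a count of 0 covers counting error only, since PCR copies are not independent molecules. Alternatives covered the detection minimum, unit, estimator, table, coding transcripts, scaling (including DESeq2 1.42.0 size factors), count filter, fold bound and each library alone.

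The members and the gene lists were chosen with earlier results of these data known. Named are all 35 members, up to 4 highest genes of each other list plus those sharing a step with a member, and the copies most alike to a member. Some results under this rule are not reported here.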

Additional observations from a re-analysis of the deposited data

How the results depend on the processing

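Of the alternatives tried, 65 were counted as leaving their result unchanged, 24 moved it and 3 reversed the leading gene. A share from either library alone always lies within the SD of the 2 libraries, so those alternatives could not count as moves. Results given without an SD, such as the number detected, have no spread to be held against. By M4 counts Pgam1 fell to 10.1% of its step and Eno1 to 38.0%, and the shares were 58.7% for Slc2a3, 55.9% for Pfkp, 93.4% for Aldoa, 64.7% for Ldha, 74.3% for Slc16a1 and 55.4% for Pdk1. With coding transcripts alone Pdk1 fell to 31.1%, and the shares were 82.2% for Slc2a3, 98.7% for Hk1, 62.1% for Pfkp and 69.0% for Slc16a1. By estimated counts, without length correction, they were 72.1% for Slc2a3, 61.6% for Pfkp, 98.0% for Pgam1, 96.8% for Eno1, 92.2% for Ldha, 80.2% for Slc16a1 and 75.7% for Pdk1. By posterior mean TPM they were 62.6% for Slc2a3, 97.4% for Hk1 and 65.1% for Slc16a1. The cause of these moves was not tested. The median member lay 1.70 above the median detected gene in log2(TPM + 1), and 5.67 above the median of all genes with a read, a set that holds more low genes by construction. At 1.5-fold, 1 member was higher in library 2 in place of 3. In library 1, 3 members were higher by TPM ratio and 4 by M4 counts, in place of 1, the 4 including Pgam1 on 15 and 3 M4 counts. The share of all genes past the bound is not given for these settings, so these counts cannot be set against it. The number detected was 29 at a minimum of 5 TPM and 32 or 33 under the other minimums, units and single libraries. Each library alone gave the same leading gene at every step. No paired analysis was possible because there is 1 group. Depth limits Slc2a6, Hk2, Hk3 and Pgam2, each with under 120 counts in a library.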
